A study of Homo sapiens with 4 samples.

Results

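The 10 genes described here are the markers and regulators by which epithelial-mesenchymal transition (EMT) is usually followed: the classical cadherins CDH1, CDH2 and CDH3, the mesenchymal products VIM and FN1, and the transcription factors SNAI1, SNAI2, ZEB1, ZEB2 and TWIST1. They were taken by symbol, as a fixed list and by no threshold on their values, from 26726 genes counted by RNA-seq, with earlier results of these data known. All 10 passed the filter on low counts that left 15104 genes for testing. The cells were HN12, a human head and neck squamous cell carcinoma (HNSCC) line, and the comparison was between cells with ATAD3A knocked out (KO) and their unedited parental cells (WT). ATAD3A is an ATPase of the mitochondrial inner membrane.

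In EMT, epithelial cells loosen their lateral contacts and take on the shape and motility of mesenchymal cells. CDH1 (E-cadherin) holds neighbouring epithelial cells together through catenins, and SNAI, ZEB and TWIST factors are known as repressors of its gene. CDH2 (N-cadherin), VIM (the intermediate filament protein vimentin) and FN1 (the matrix protein fibronectin) are the products usually read as the mesenchymal end. Carcinoma cells often hold an intermediate state, called partial EMT, in which epithelial and mesenchymal products are made side by side. Squamous epithelium also carries CDH3 (P-cadherin) in its basal layer.

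There were 4 libraries, labelled KO1, KO2, WT1 and WT2, with 2 independent cultures per group. No treatment is given in the labels for either group. The KO cells had received a Cas9 plasmid with a guide against an ATAD3A exon, were selected with puromycin and were grown out from single cells as clones. Which clone or clones gave KO1 and KO2 is not given in the sources used here, so a difference between KO and WT and a difference between a clone and its parental pool cannot be told apart. Library totals were 18943547 and 16805766 counts for KO1 and KO2, and 15173766 and 13569971 for WT1 and WT2, so both KO libraries were the deeper ones. ATAD3A itself stood at 38.1 and 30.0 CPM (counts scaled to the TMM-adjusted library total) in KO1 and KO2 and at 116 and 106 in WT1 and WT2. It was therefore 3.25-fold lower in KO (log2 difference -1.70, SE 0.0907, adjusted p = 1.58e-17), and its mRNA was not absent. For protein, the study reported complete loss of ATAD3A by Western blotting in the KO clones it carried forward. ATAD3B, the close copy of ATAD3A, rose from 76.8 ± 6.11 to 149 ± 10.7 CPM (SD, n = 2). How reads shared between these copies were counted is not given in the sources used here. Squamous markers were present in all 4 libraries. KRT5, the basal keratin, was at 2468 and 2440.2 CPM in KO and at 402 and 391 in WT, and the basal transcription factor TP63 was at 277 ± 21.96 CPM in KO and 335 ± 2.21 in WT (SD, n = 2).

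RefSeq promoter windows on GRCh38.p14 were matched to 5 of the 10 genes, VIM, FN1, CDH2, ZEB1 and ZEB2, and none to CDH1, CDH3, SNAI1, SNAI2 and TWIST1. Those of the 3 matched genes that were higher in KO, VIM, FN1 and ZEB1, are shown, as the stretch upstream of the transcription start, 5′ to 3′ on the strand of the gene. Both strands were searched for CAGGTG, whose reverse complement is CACCTG and which is the E-box that SNAI and ZEB factors are known to bind, and for the general E-box CANNTG, which includes it. Capitals mark an E-box. The VIM window lies at chr10:17227991-17228240 on the plus strand, the FN1 window at chr2:215436173-215436318 on the minus strand, cut to the part that lies in no annotated UTR, and the first of 7 ZEB1 windows at chr10:31318167-31318416 on the plus strand.
VIM: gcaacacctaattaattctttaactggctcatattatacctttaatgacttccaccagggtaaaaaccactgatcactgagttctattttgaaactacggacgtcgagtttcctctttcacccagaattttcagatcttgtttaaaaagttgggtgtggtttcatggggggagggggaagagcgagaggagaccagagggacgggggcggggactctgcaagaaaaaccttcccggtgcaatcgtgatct
FN1: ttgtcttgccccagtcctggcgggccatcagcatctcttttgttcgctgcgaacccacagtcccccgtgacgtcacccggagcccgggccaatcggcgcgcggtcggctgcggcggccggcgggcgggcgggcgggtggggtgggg
ZEB1: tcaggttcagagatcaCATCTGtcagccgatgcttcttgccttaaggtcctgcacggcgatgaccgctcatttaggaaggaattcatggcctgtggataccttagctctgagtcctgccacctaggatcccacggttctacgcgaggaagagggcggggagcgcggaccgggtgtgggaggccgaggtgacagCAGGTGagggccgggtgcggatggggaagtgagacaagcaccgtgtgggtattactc
The VIM window held no CANNTG, and neither did that of FN1 over its full 250 bases. That of ZEB1 held CATCTG 234 bases and CAGGTG 57 bases before the start. Over all 7 ZEB1 windows, 2 held CAGGTG or CACCTG and 4 held CANNTG. Of 35116 RefSeq windows of 250 bases, 17.5% held CAGGTG or CACCTG and 61.8% held CANNTG. These are matches of letters and not measured binding sites.

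**Figure D1:**
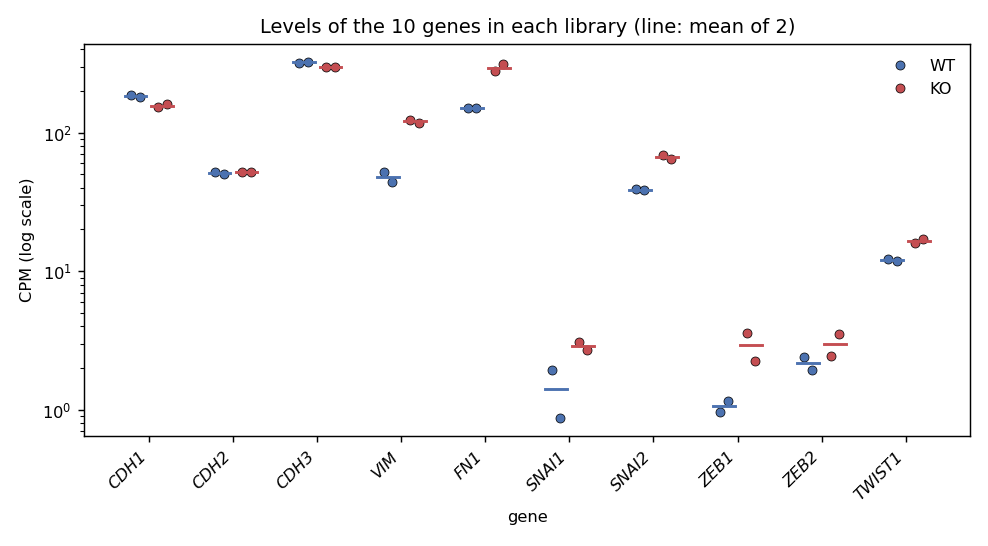
Level of each of the 10 genes in each library, in CPM on a log axis, with 1 point per library and KO and WT in separate colours. VIM, FN1, SNAI2, ZEB1 and TWIST1 sit higher in both KO libraries, CDH1 sits lower, and the points of CDH2 lie on top of each other.

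With an adjusted p under 0.05, 5 of the 10 genes were higher in KO, VIM, FN1, SNAI2, ZEB1 and TWIST1, and 1 was lower, CDH1. CDH2, CDH3, SNAI1 and ZEB2 did not pass. These are 6 of 10 in either direction, where 39.5% of the 15104 genes tested were called, 20.4% as higher and 19.1% as lower. VIM and ZEB1 also differed by over 2-fold, which 6.14% of all genes tested did with a call. Scaling by library totals alone left 5 of the 10 genes higher and made 2 lower, and over all genes it turned 3074 higher and 2891 lower calls into 2508 and 3615. In CPM, the KO and WT libraries did not overlap in 9 of the 10 genes, 7 higher and 2 lower in KO, where 68.1% of all tested genes had groups that did not overlap. In RPKM, ZEB2 overlapped and CDH2 did not, being lower in KO. The median log2 difference of the 10 genes was 0.62, and that of all genes tested was -0.00. The study's thresholds were an unadjusted p under 0.05 with a fold limit in each direction (below 0.75 for a gene called lower). They were put here on the edgeR test, where the study used DESeq, so these are not the study's own calls. With them, 6 of the 10 genes were higher, against 17.0% of all genes. CDH1 and all others then fell short of the lower threshold, which 12.2% of all genes met. In bulk RNA, fewer cells that make a transcript and less of it per cell cannot be told apart.

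**Figure D2:**
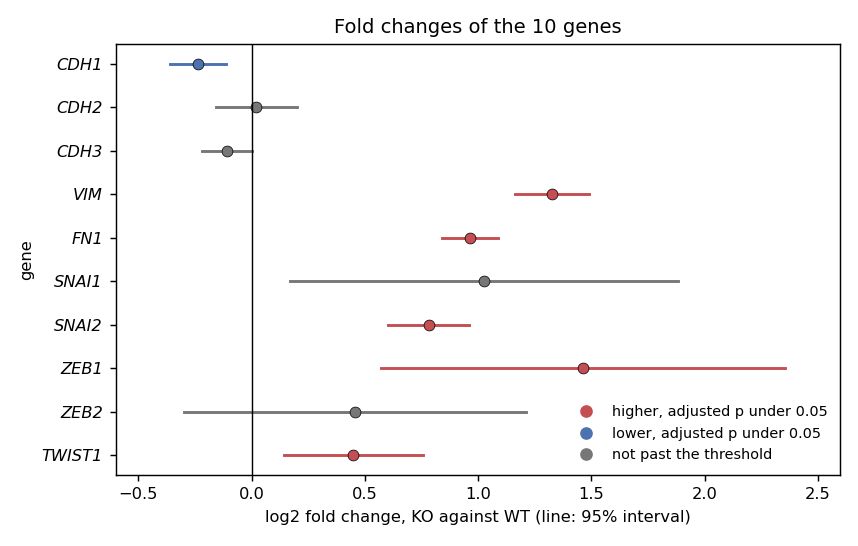
Log2 difference between KO and WT for each of the 10 genes, as a point with its 95% interval derived from edgeR's quasi-likelihood test. The intervals of VIM, 1.16 to 1.49, and FN1, 0.84 to 1.09, are narrow and lie far above 0, those of SNAI1, ZEB1 and ZEB2 are wide, and that of CDH1 lies just below 0.

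Among the cadherins, CDH1 was slightly lower in KO, and CDH2 and CDH3 did not pass the test. CDH1 (ENSG00000039068; GRCh38, chromosome 16, 68737225 to 68835548, plus strand) had 2806 and 2642 counts in KO1 and KO2 and 2907 and 2521 in WT1 and WT2, which is 152 and 161 CPM against 188 and 181. Both KO libraries lay below both WT libraries. The means were 157 ± 6.27 and 184 ± 4.58 CPM (SD, n = 2), a 1.18-fold difference (log2 -0.24, SE 0.0609, 95% interval -0.36 to -0.11, adjusted p = 0.00187). Without WT1 the difference was -0.21 and the adjusted p 0.0701. Per length, the E-cadherin transcript stood at 31.3 ± 1.32 RPKM (reads scaled to gene length and library total; SD, n = 2) in KO and at 38.7 ± 0.842 in WT.

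CDH3 (ENSG00000062038) is the neighbour of CDH1 on chromosome 16, from 68636189 to 68722616 on the plus strand, and ends 14609 bases before CDH1 starts. Its counts were 5523 and 4922 in KO and 4974 and 4526 in WT, or 299.6 and 300.1 against 321 and 325 CPM. The KO libraries were again both below the WT libraries, by a log2 difference of -0.11 (SE 0.0540, 95% interval -0.22 to 0.00086), and the adjusted p of 0.110 did not pass. It did pass under 4 of 14 alternative settings. These were library totals alone (-0.18, adjusted p = 0.00693), the GC and length correction (-0.19, adjusted p = 0.00135) and limma on both RPKM scales. Per length, CDH3 was the most abundant of the 10 genes in both groups, at 78.9 ± 0.253 RPKM in KO and 89.3 ± 1.09 RPKM in WT (SD, n = 2).

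CDH2 (ENSG00000170558; chromosome 18, 27950966 to 28177446, minus strand) had 964 and 853 counts in KO and 810 and 702 in WT. In CPM these were 52.3 and 52.0 against 52.3 and 50.5, so that the libraries of both groups overlapped. The log2 difference was 0.02 (SE 0.0875, adjusted p = 0.881), and its 95% interval ran from -0.16 to 0.20. Its sign turned to -0.05 with library totals alone and to -0.0064 without WT2. Chromosome 18 stood apart in these libraries. Of the 194 other tested genes on it, 139 (71.6%) were called lower in KO and 4 higher, with a median log2 difference of -0.76, and 181 (93.3%) had a lower value than CDH2. On the chromosomes of the other 9 genes the same median lay between -0.16 and 0.09. Its neighbours were looked up after these values were seen. KCTD1, the nearest tested gene, lies 1293565 bases away and differed by -0.09 without a call, and TAF4B and SS18 beyond it fell by 0.71 and 0.74 on the log2 scale. On the other side, from 2812562 bases on, lie DSC3 and DSC2, the desmosomal cadherins desmocollin 3 and 2, which fell by 1.13 and 1.82. The part of the chromosome in the CDH2 value was not tested.

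**Figure D3:**
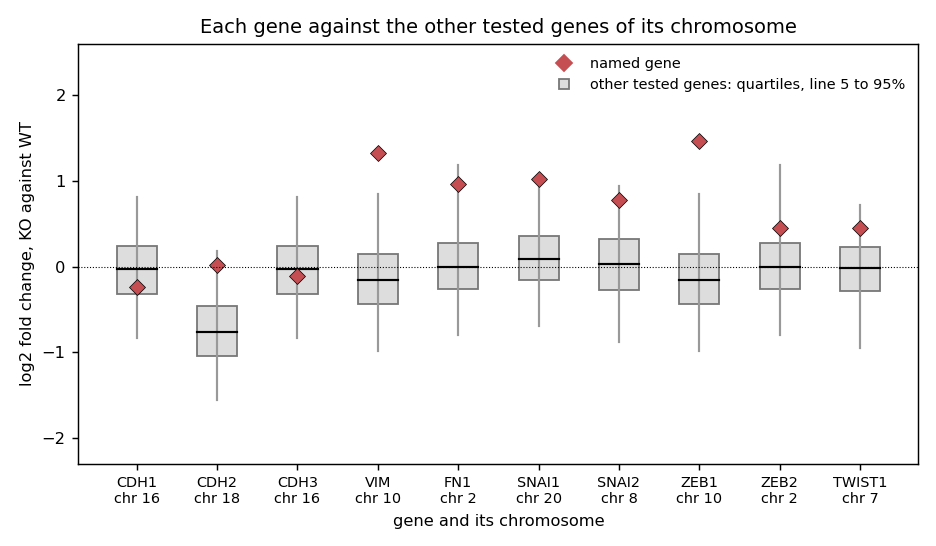
Log2 difference between KO and WT of each of the 10 genes (point) beside that of the other tested genes on its chromosome (box for the quartiles with the median, line from the 5th to the 95th percentile). CDH2 sits above the box of chromosome 18, whose median is -0.76, whereas CDH1 and CDH3 sit within the box of chromosome 16.

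The table lists 15 further genes named CDH with a number, of which 7 were tested, and 4 (57.1%) rose in KO while none fell, where 39.5% of all genes tested were called. With edgeR, 0 of the 7 were lower at an unadjusted p under 0.05 as well, and 0 with DESeq2, the exact test and limma. CDH11, a cadherin typical of mesenchymal cells and osteoblasts, had 1919 and 1761 counts in KO and 174 and 148 in WT, or 104 and 107 against 11.2 and 10.6 CPM. That is a 9.65-fold difference (log2 3.27, SE 0.1002, adjusted p = 8.70e-25), larger than that of any of the 10 genes. CDH13, the GPI-anchored T-cadherin, stood at 11.2 and 9.82 CPM against 4.65 and 6.18 (log2 0.96, adjusted p = 0.000255). CDH4, the R-cadherin, rose by 0.51 (adjusted p = 0.000239) and CDH24 by 0.53 (adjusted p = 2.25e-05) on the log2 scale. CDH10 and CDH26 had values of -0.89 and -0.55 with adjusted p of 0.126 and 0.200, and CDH8 had 0.06 with overlapping libraries. The 8 that were not tested, among them the endothelial CDH5, had at most 18 counts in any library. Per length, CDH11 at 14.99 RPKM in KO was above CDH2, at 11.7 RPKM, and in WT it was below, at 1.63 against 12.1 RPKM.

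**Figure D4:**
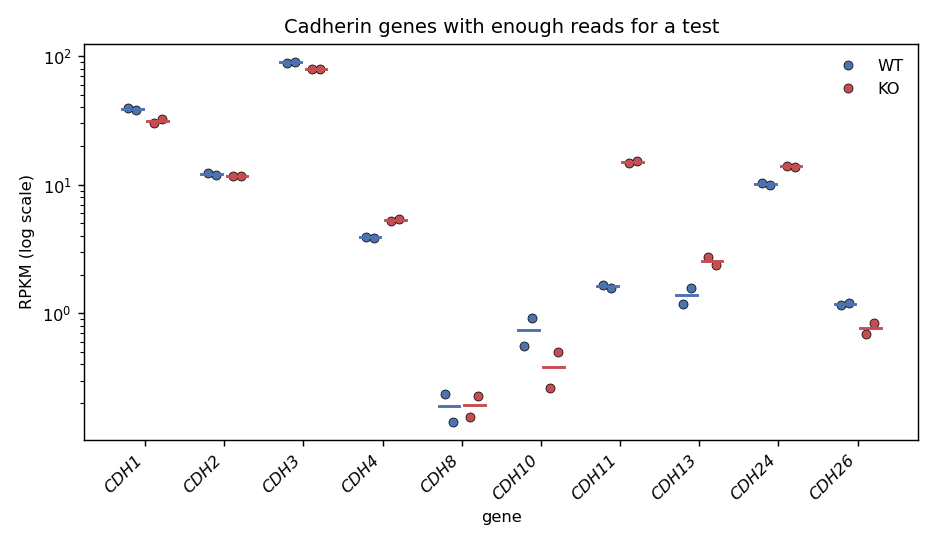
RPKM of the 10 cadherin genes that were tested, with 1 point per library and KO and WT in separate colours. CDH3 and CDH1 lead in all 4 libraries, and CDH11 is the cadherin whose groups lie farthest apart.

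The transcripts of the mesenchymal products VIM and FN1 were both higher in KO. For protein in ATAD3A KO HN12 cells, the study itself reported more E-cadherin, less vimentin and reduced invasion. CDH1 and VIM thus differed in the other direction in RNA, and what sets RNA and protein apart was not tested. VIM (ENSG00000026025; chromosome 10, 17228259 to 17237593, plus strand) had 2296 and 1936 counts in KO1 and KO2 and 812 and 613 in WT1 and WT2. This gave 125 and 118 CPM in KO and 52.4 and 44.1 in WT, with both KO libraries more than double either WT library. The means of 121 ± 4.60 and 48.3 ± 5.91 CPM (SD, n = 2) were 2.51-fold apart (log2 1.33, SE 0.0805, adjusted p = 6.29e-16). The antisense gene VIM-AS1 overlaps the start of VIM and had 11, 20, 10 and 6 counts in KO1, KO2, WT1 and WT2, far below VIM itself.

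FN1 (ENSG00000115414; chromosome 2, 215360440 to 215436172, minus strand) had 5164 and 5114 counts in KO and 2342 and 2114 in WT, or 280.1 and 312 against 151 and 152 CPM. The KO libraries differed from each other more than the WT libraries did, and yet lay well above them. FN1 was 1.95-fold higher (log2 0.96, SE 0.0604, adjusted p = 1.63e-15). VIM and FN1 passed under all 14 alternative settings, with log2 differences of 1.21 to 1.46 for VIM and 0.86 to 1.23 for FN1.

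Of the transcription factors, SNAI2 was the most abundant and the one whose change was best resolved. SNAI2 (Slug; ENSG00000019549; chromosome 8, 48917604 to 48921740, minus strand) had 1277 and 1053 counts in KO and 605 and 537 in WT, or 69.3 and 64.2 against 39.1 and 38.6 CPM. Every KO library was above every WT library, and the 1.72-fold difference (log2 0.78, SE 0.0888, adjusted p = 4.85e-09) passed under all 14 alternative settings. SNAI1 (Snail; ENSG00000124216; chromosome 20, 49982999 to 49988886, plus strand) was scarce, with 57 and 44 counts in KO and 30 and 12 in WT. At 3.09 and 2.68 against 1.94 and 0.863 CPM, its groups did not overlap, but the 2 WT libraries were more than 2-fold apart. The log2 difference of 1.03 (SE 0.422, 95% interval 0.17 to 1.88) had an adjusted p of 0.0510 and did not pass, and its value moved with the library left out. It was 1.74 without WT1 (adjusted p = 0.0171), 0.57 without WT2 (adjusted p = 0.422) and 0.93 without KO1 (adjusted p = 0.191).

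The ZEB factors were the least abundant of the 10 genes per length, in RPKM, while in CPM they were near SNAI1. ZEB1 (ENSG00000148516; chromosome 10, 31318495 to 31529814, plus strand) had 66 and 37 counts in KO and 15 and 16 in WT, or 3.58 and 2.26 against 0.969 and 1.15 CPM. It was 2.76-fold higher in KO (log2 1.46, SE 0.440, 95% interval 0.57 to 2.36, adjusted p = 0.00722), and KO1 was the higher of the KO libraries. Without KO1 the log2 difference was 1.09 with an adjusted p of 0.187, and without WT1 it was 1.35 with an adjusted p of 0.0557. The antisense gene ZEB1-AS1 had 5, 7, 6 and 9 counts in KO1, KO2, WT1 and WT2. ZEB2 (ENSG00000169554; chromosome 2, 144364364 to 144524583, minus strand) had 45 and 58 counts in KO and 37 and 27 in WT. Its values of 2.44 and 3.54 against 2.39 and 1.94 CPM only just failed to overlap, and the log2 difference of 0.45 (SE 0.372, 95% interval -0.30 to 1.21, adjusted p = 0.362) did not pass.

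TWIST1, a basic helix-loop-helix factor of mesoderm (ENSG00000122691; chromosome 7, 19020991 to 19117672, minus strand), had 297 and 278 counts in KO and 191 and 165 in WT. These were 16.1 and 16.9 against 12.3 and 11.9 CPM, a 1.36-fold difference (log2 0.45, SE 0.151, adjusted p = 0.0166). The call was close to its threshold. It was lost with DESeq2, where the adjusted p was 0.0760, and the GC and length correction brought the difference to 0.21. It was also lost without KO2, WT1 or WT2, with adjusted p of 0.0546, 0.0503 and 0.0827.

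The order of the levels per length differed between KO and WT in the places of CDH1, VIM, SNAI2 and FN1, and in both groups CDH3 came first and CDH2, TWIST1, SNAI1, ZEB2 and ZEB1 closed it. In WT the RPKM means ran from CDH3 at 89.3 to CDH1 at 38.7, VIM at 18.5, SNAI2 at 18.02, FN1 at 16.9, CDH2 at 12.1, TWIST1 at 7.43, SNAI1 at 0.849, ZEB2 at 0.353 and ZEB1 at 0.173. VIM and SNAI2 overlapped in WT, and the VIM range reached down to FN1. In KO they ran from CDH3 at 78.9 to VIM at 44.3, FN1 at 31.5, CDH1 at 31.3, SNAI2 at 29.5, CDH2 at 11.7, TWIST1 at 9.67, SNAI1 at 1.67, ZEB2 at 0.464 and ZEB1 at 0.454. Here FN1, CDH1 and SNAI2 overlapped in turn, as did ZEB2 and ZEB1. The RPKM ratio of CDH1 to VIM was 0.668 and 0.746 in KO1 and KO2 and 1.96 and 2.25 in WT1 and WT2, so that VIM was above CDH1 in both KO libraries and below it in both WT libraries. The CDH1 to CDH2 ratio was 2.59 and 2.75 against 3.19 in each WT library, and the CDH3 to CDH1 ratio was 2.59 and 2.45 against 2.25 and 2.36. For each of the 3 ratios the exact permutation test over libraries, two-sided, gave p = 0.333, the smallest that 2 libraries against 2 allow.

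The cytoplasmic and lateral partners of the classical cadherins differed in both directions. Of 10 adherens junction genes, 2 were higher and 5 lower in KO, with a median log2 difference of -0.15. That is 70% called, where 39.5% of all genes tested were called, 20.4% as higher and 19.1% as lower. JUP (plakoglobin), which binds cadherin tails at both adherens junctions and desmosomes, was at 635 and 614 CPM in KO and 544 and 513 in WT (log2 0.24, adjusted p = 0.000266). VCL (vinculin), which links the complex to actin, differed by -0.20 (adjusted p = 0.00256), and the nectins PVRL3 and PVRL4 fell by 0.81 and 1.04 on the log2 scale (adjusted p = 0.000235 and 0.00624). The catenins, looked up after the values were known, gave -0.13 for CTNNB1 (adjusted p = 0.0485), -0.03 for CTNNA1 (adjusted p = 0.692) and -0.03 for CTNND1 (adjusted p = 0.712). The number lower was 2 without WT1 and 2 without WT2, and the number higher was 1 without KO2 or WT2. VCL was not called without WT1, nor PVRL4 without WT2. With the GC and length correction JUP was at 0.03 (adjusted p = 0.599) and VCL at -0.09 (adjusted p = 0.132), and neither was called.

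Genes of epithelial identity were lower more often than higher. Of 32 listed, 31 were tested, 16 were lower and 2 higher, with a median of -0.21. That is 58.1% called, against 39.5% of all genes tested. TJP3 (ZO-3) and OCLN (occludin), parts of the tight junction, stood at 3.42 and 4.45 against 11.8 and 11.7 CPM and at 12.0 and 10.9 against 26.2 and 26.1 CPM. These are log2 differences of -1.58 (adjusted p = 1.51e-07) and -1.19 (adjusted p = 7.11e-09). The epithelial transcription factor ELF3 fell by 0.47 (adjusted p = 0.000224), and LLGL2, a polarity gene of the lateral membrane, rose by 0.61 (adjusted p = 5.32e-07).

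The genes listed as mesenchymal effectors did not move together as VIM and FN1 did. Of 22, 18 were tested, 5 were higher and 6 lower, with a median of -0.27. That is 61.1% called, against 39.5% of all genes tested. POSTN, THY1, FAP and CNN1 were too low to test. FBN1 (fibrillin 1) was at 8.24 and 8.78 against 4.39 and 1.65 CPM (log2 1.47, adjusted p = 4.92e-05), and TNC (tenascin C) rose by 1.02 (adjusted p = 1.58e-13). LOXL2, a lysyl oxidase of the matrix, was at 85.2 and 89.4 against 152 and 153 CPM (log2 -0.80, adjusted p = 2.00e-12). MYL9, a myosin light chain, was lower by -0.94 on the log2 scale (adjusted p = 0.0129), a call lost without KO2, WT1 or WT2. Of the 8 genes for fibronectin receptor subunits, 6 were tested, and 4 fell and 0 rose, also 0 at an unadjusted p under 0.05 in edgeR and with DESeq2, the exact test and limma. Their median was -0.24, and 66.7% of those tested were called, against 39.5% of all genes tested. ITGB5 was at 48.8 and 52.4 against 114 and 120.2 CPM (log2 -1.21, adjusted p = 1.64e-15), and ITGB6, ITGA5 and ITGAV had differences of -0.35, -0.24 and -0.24. ITGA5 and ITGAV were not called without KO1 or WT2, and ITGB6 not without KO1, so that the number lower was 1 without KO1 and 2 without WT2. The GC and length correction turned ITGAV to 0.04 and left ITGB6 without a call (-0.14, adjusted p = 0.268). ITGB1, the partner of ITGA5, gave 0.000515 (adjusted p = 0.995).

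**Figure D5:**
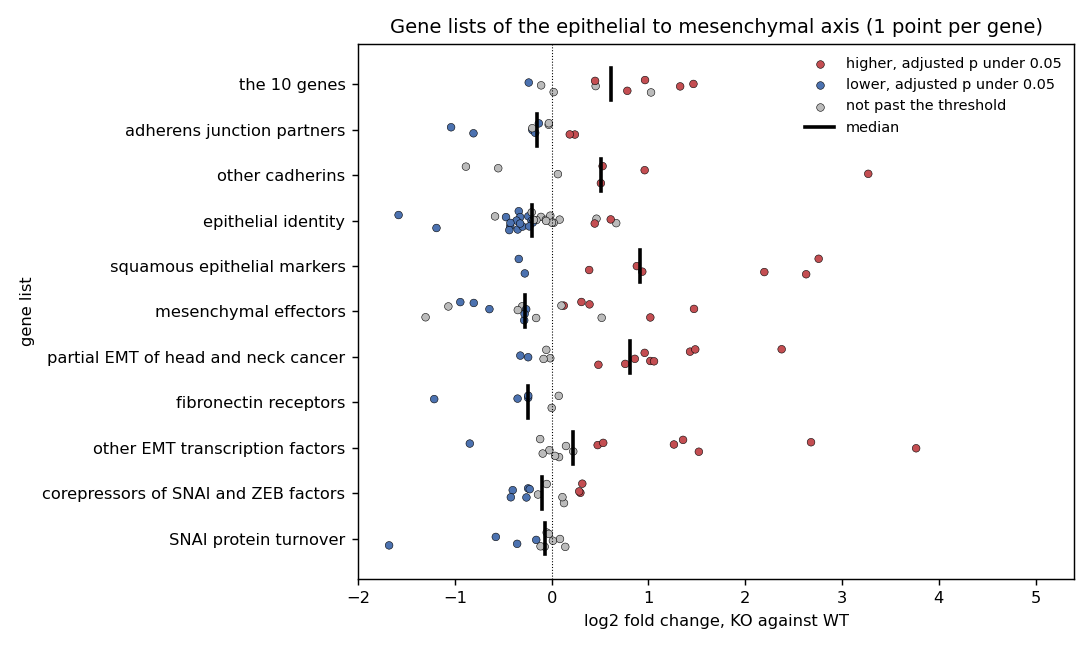
Log2 difference between KO and WT for every tested gene of 11 lists, with 1 point per gene and a bar at each median. The medians lie between -0.27 for the mesenchymal effectors and 0.91 for the squamous markers, and the point of FOXC2 at the far right is a fitted value that depends on the prior count.

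Other transcription factors tied to EMT, listed together with the ID inhibitors of such factors, were more often higher than lower. Of 19 listed, 15 were tested, 7 were higher and 1 lower, with a median of 0.22. That is 53.3% called, against 39.5% of all genes tested. The 7 were TWIST2, FOXC2, FOXQ1, SOX9, ID1, ID2 and ID3. FOXQ1, a forkhead factor, was at 11.2 and 10.1 CPM in KO and 2.32 and 0.935 in WT (log2 2.68, adjusted p = 7.56e-10). TWIST2, the paralog of TWIST1, was at 7.21 and 7.68 against 2.52 and 3.31 CPM (log2 1.36, adjusted p = 5.70e-05). ID2, like ID1 and ID3 an inhibitor of basic helix-loop-helix factors, was at 3.15 and 3.72 against 1.23 and 1.15 CPM (log2 1.52, adjusted p = 0.00243). FOXC2 had 22 and 14 counts in KO and 0 and 2 in WT. This is a ratio of 15.2 by TMM-scaled library totals, with an exact counting interval of 3.91 to 130. That interval pools the libraries of each group and leaves out the spread between cultures. FOXC2 passed the filter only through KO, and its call was lost without KO1 or WT1. The 1 gene that fell, TCF4 on chromosome 18, differed by -0.85 (adjusted p = 0.00507), and this call was lost without KO2 or WT2.

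Partners and regulators of the SNAI and ZEB proteins were also looked at. Among 12 corepressors, 3 were higher and 5 lower, with a median of -0.10. That is 66.7% called, against 39.5% of all genes tested. CTBP1, the corepressor of ZEB factors, and AJUBA, a LIM protein that binds SNAI factors, rose by 0.30 and 0.32 on the log2 scale (adjusted p = 0.000535 and 9.40e-06), and CTBP1 was not called with the GC and length correction (0.13, adjusted p = 0.113). SUZ12, a Polycomb subunit, and SIN3A, a scaffold for histone deacetylases, fell by 0.42 and 0.40 (adjusted p = 2.69e-06 and 9.35e-06). The number lower was 3 without KO1 and 3 without WT1. Of 12 genes for turnover of SNAI proteins, 11 were tested and 4 (36.4%) were called, near the 39.5% of all genes tested. All 4 fell and 0 rose, also 0 at an unadjusted p under 0.05 in edgeR and with DESeq2, the exact test and limma. Their median was -0.07. GSK3B, the kinase that marks SNAI1 protein for degradation, was at 79.5 and 84.1 against 109.7 and 99.5 CPM (log2 -0.36, adjusted p = 0.000138). FBXL14, a ubiquitin ligase subunit for SNAI proteins, differed by -0.58 (adjusted p = 0.00203), and not past the threshold without WT2. CSNK1A1, a casein kinase, and USP27X, a deubiquitinase, differed by -0.16 and -1.68 (adjusted p = 0.0396 and 0.0361). USP27X passed the filter only through WT, and its call was lost with any 1 of the 4 libraries left out, that of CSNK1A1 without KO1, WT1 or WT2. The number lower was 2 without KO1, 2 without WT1 and 1 without WT2, and the GC and length correction turned CSNK1A1 to 0.09 and left GSK3B without a call (-0.12, adjusted p = 0.152).

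Genes known from partial EMT of head and neck cancer were mostly higher in KO. All 14 were tested, 9 were higher and 2 lower, with a median of 0.81. That is 78.6% called, against 39.5% of all genes tested. The secreted matrix protein TGFBI had 27751 and 24899 counts in KO and 8820 and 7689 in WT, a 2.69-fold difference (log2 1.43, adjusted p = 2.25e-23). MMP2, a gelatinase, was at 44.97 and 41.5 against 16.1 and 14.7 CPM (log2 1.48, adjusted p = 5.44e-13), and MMP10, a stromelysin, at 4.39 and 5.97 against 0.775 and 1.22 CPM (log2 2.38, adjusted p = 3.05e-06). EMP3, a membrane protein, rose by 1.06 (adjusted p = 1.37e-09). LAMA3, a laminin 332 chain noted after the values were known because it lies on chromosome 18, rose by 0.76 (adjusted p = 8.75e-15). INHBA and ITGA5 were lower by -0.32 and -0.24 on the log2 scale, and P4HA2 and PDPN did not pass. The list shares TNC with the mesenchymal effectors, ITGA5 with the fibronectin receptors and CDH13 with the cadherins. The number lower was 1 without KO1 and 1 without WT2.

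Most of the genes listed as markers of squamous epithelium were higher in KO. All 8 passed the test, 6 higher and 2 lower, where 39.5% of all genes tested were called. Their median was 0.91, and their summed level was 2188 and 2158 RPKM in KO against 963 and 980.4 in WT. KRT6A rose by 2.76, KRT5 by 2.63, KRT14 by 2.20 and KRT17 by 0.94 on the log2 scale. EPCAM, which was also counted in the epithelial identity list, fell by 0.34, and TP63 fell by 0.28. Markers of other cell types were low. Of 6 fibroblast genes in the table, PDGFRA, COL1A2, COL3A1 and FAP had at most 4 counts in any library, and COL1A1, at 209, 228, 226 and 159 counts, had overlapping groups (adjusted p = 0.843). COL1A1 and PDGFRB were the only 2 of the 6 high enough to test. Neither was called in edgeR, with 1 lower at an unadjusted p under 0.05 and with the exact test, and 0 with DESeq2 and limma. The summed level of the 6 was 1.84 and 2.26 RPKM in KO and 2.62 and 1.99 in WT. Of 5 leukocyte genes, PTPRC had at most 9 counts and CD68 at most 2, CD14 had 39 to 62 counts in all libraries, and the sum was 1.248 and 2.19 against 1.72 and 2.19 RPKM. Of 5 endothelial genes, TEK had at most 4 counts and CDH5 at most 15, and the sum of 2.29 and 2.28 against 0.788 and 0.555 RPKM rested on the ETS factor ERG, with 182 and 175 counts in KO and 29 and 17 in WT. The part of the squamous markers and of ERG in the values of the 10 genes was not tested.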

How the data were processed

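The 4 HN12 libraries, 2 KO and 2 WT, were made from TRIzol-purified RNA and read to 50 nt on an Illumina instrument by a commercial service. The authors deposited raw read counts per gene under Ensembl identifiers, and RPKM values that equal these counts divided by library total and by 1 length per gene, as the authors computed them. The submitters' processing notes name CASAVA, STAR 2.5, HTSeq, edgeR 3.16.5, DESeq2 (version 2) and hg19. Use of strand in counting is not given in the sources used here, so reads of overlapping antisense genes cannot be told apart. The study's methods name DESeq size factors and nbinomTest.

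From the counts, KO and WT were compared with edgeR 4.0.16 in R 4.3.3: filterByExpr, TMM factors, the quasi-likelihood test and Benjamini-Hochberg adjustment over all 15104 genes tested. The threshold was an adjusted p under 0.05. CPM uses TMM-scaled totals. The SE of a log2 difference was taken as its absolute value over the square root of the F statistic of this test. Intervals are 95% and, for a log2 difference, use this SE with a t quantile. Levels between genes were compared as the deposited RPKM. Replicates differed by more than sampling noise (chi-square per degree of freedom 4.20 for KO and 3.36 for WT, over genes with at least 10 counts). Alternatives were DESeq2 1.42.0, the edgeR exact test, DESeq2 size factors, library totals alone, other filters, a replicate block, limma 3.58.1 on log2(RPKM + 1) and log2(RPKM + 0.1), spline offsets for GC and length, and leaving out each library.

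Positions are those of GENCODE release 29 on GRCh38, joined by Ensembl identifier for 25550 of 26726 genes, and were not used with hg19 coordinates. Named from each list were the 4 genes with the largest log2 difference among those called with groups that did not overlap, all tested cadherins, all 10 genes and ATAD3A. The genes and lists were chosen with earlier results of these data known, and the study's own thresholds were added as an alternative after seeing the data. P-values rest on the spread between 2 cultures per group, and edgeR moderated the spread of each gene with that of all genes tested. A p-value therefore does not rest on the gene's own cultures alone.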

Additional observations from a re-analysis of the deposited data

How the results depend on the processing

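VIM, FN1 and SNAI2 stayed past the threshold and in the same direction under all 14 alternatives, ZEB2 and CDH2 stayed short of it, and CDH1 lost its call in 1, ZEB1 in 4 and TWIST1 in 5, while SNAI1 gained one in 5 and CDH3 in 4. Over all named genes, 693 values stayed on their side and in their direction, 43 lost and 9 gained a call, and 9 turned sign. With library totals alone, CDH2 turned to -0.049 and CDH8 to -0.0045 on the log2 scale, and 2 of the 10 genes were lower, CDH3 joining CDH1, with 1 adherens junction gene higher. On log2(RPKM + 1) CDH2 turned to -0.045, 2 of the 10 genes were lower, 1 adherens junction gene was higher, and 0 of the other EMT transcription factors were lower. On log2(RPKM + 0.1) CDH2 turned to -0.048, with the same 2, 1 and 0, and 3 mesenchymal effectors were higher. The GC and length correction turned CSNK1A1 to 0.088 and ITGAV to 0.041, and gave 2 of the 10 genes lower, 0 adherens junction genes higher and 3 lower, 0 other EMT transcription factors lower, 2 corepressors lower, 1 partial EMT gene lower, 1 fibronectin receptor higher and 2 lower, and 1 squamous marker lower. DESeq2 gave 3 adherens junction genes, 3 corepressors and 2 SNAI turnover genes lower, no filter gave 2 SNAI turnover genes lower, and the exact test gave 1 fibroblast marker lower. With the study's thresholds, added after seeing the data, 0 of the 10 genes and 1847 of all genes were lower. Over all genes tested, the median log2 difference was -0.0042 in the main fit and -0.074 with library totals alone. On log2(RPKM + 1) and log2(RPKM + 0.1) it was -0.054 and -0.071. The causes of these shifts were not tested.

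Whether the replicate numbers pair the cultures is not given in the sources used here. Deviations of KO1 and WT1 from their group means had a correlation of -0.06 over 11161 genes. This shows little shared deviation by number, and cannot show how the cultures were run. With the replicate block, SNAI1 passed at 1.08 (adjusted p = 0.0378), CSNK1A1 and USP27X did not, and 2 SNAI turnover genes were lower. No other call of a named gene changed.

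With 1 library left out at a time, an arm of 1 is assumed to vary like the other group. The log2 difference of CDH2 then lay between -0.0064 and 0.051 and that of CDH8 between -0.25 and 0.48. The number lower ran from 0 to 1 for the 10 genes, 2 to 5 for adherens junction genes (1 to 2 higher), 0 to 1 for other EMT transcription factors, 3 to 5 for corepressors, 1 to 3 for SNAI turnover, 1 to 2 for partial EMT and 1 to 4 for fibronectin receptors. SNAI1, ZEB1 and ZEB2 had 12, 15 and 27 counts in their lowest library, and the part of depth in their unsettled calls was not tested.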
